A study of Mus musculus with 6 samples.

Results

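The NRF2 and glutathione defence against oxidants was followed through 10 genes in cultured neonatal mouse fibroblasts grown from tail tips. They were taken by name, and all probe sets that the array's platform table assigns to one of them were used. A probe set is a group of short probes that reads the 3′ part of a transcript. The 10 genes had 20 probe sets of 45037 on the array, and 10 of 18193 genes; each of the 20 named 1 gene only. The groups were *Hotair* wild type (3 arrays) and *Hotair* knockout (3 arrays), with 1 array per RNA sample. *Hotair* is a long RNA that encodes no protein and is made from the Hoxc gene cluster. Both genotypes were neonatal and backcrossed to C57BL6, cells of both were tail tip fibroblasts, and no treatment was named. The labels do not give the allele, the number of animals or litters, or the passage of the cultures. Values are RMA summaries on the log2 scale, so a step of 1 is a doubling. No probe set was named for *Hotair*, and its absence in the knockout arrays was therefore not checked. The series asks which genes respond to the loss of *Hotair*, and the comparison here asks whether the oxidant defence genes are among them.

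NRF2, the product of *Nfe2l2*, is a transcription factor held at a low level by KEAP1, an adaptor that hands it to a ubiquitin ligase for destruction. Oxidants and electrophiles modify KEAP1, NRF2 then accumulates, pairs with small MAF proteins and binds antioxidant response elements beside its target genes. Its best known targets make and use glutathione, reduce thioredoxin, break down haem and conjugate reactive aldehydes. Fibroblasts in culture are exposed to more oxygen than in tissue.

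The arrays were alike in overall brightness, with medians between 5.57 and 5.68. All 12 fibroblast markers had a mean of at least 6 (6.94 to 14.65), although *Fap*, *Thy1* and *Lum* were down to 4.54, 4.65 and 5.03 on wild-type replicate 2. Several had higher means in knockout, *Dcn* by 3.10, *Thy1* by 2.85, *Lum* by 2.64, *Fap* by 2.36 and *Pdgfra* by 1.65, and 0 of 12 were called. Differences were smaller for *Col3a1* (0.59), *Pdgfrb* (0.30), *Col1a1* (0.26) and *Col1a2* (0.13). *Vim*, *Fn1* and *S100a4* had lower means in knockout, by −0.24, −0.18 and −0.09. The means of the 6 endothelial markers stood at 3.50 to 5.63. Of 11 macrophage and leukocyte markers 3 had a mean of at least 6, *Cd14*, *Lyz2* and *Csf1r*, while *Ptprc* and *Adgre1* lay between 3.84 and 4.86 on all arrays. Summed on the linear scale the 11 came to 2358 on knockout replicate 1, where *Lyz2* was at 10.57, and to 442 to 978 on the others. *Cd68*, *C1qa*, *Adgre1* and *Itgam* were also highest on knockout replicate 1, at 7.85, 6.29, 4.86 and 4.18. *Cd14*, *Csf1r*, *Ptprc*, *C1qb*, *Fcgr1* and *Aif1* were highest on other arrays. The 7 skeletal muscle markers summed to 296 to 7636, with *Acta1* at 12.85 on wild-type replicate 1, and the 5 adipocyte markers to 279 to 5080, with *Lpl* at 12.21 on knockout replicate 2. The defining *Myod1* and *Adipoq* had means of 3.97 and 3.64. Replicate 1 of both genotypes stood apart: 13 proliferation markers relative to each gene's mean had a median of −2.001 on the wild-type array and −1.38 on the knockout array of this number, against 0.56 to 1.12 on the 4 other arrays. Knockout replicate 1 also had the largest 3′ minus 5′ difference of control probe sets, 0.63 for *Actb* and 0.75 for *Gapdh*, against at most 0.21 and −0.03 elsewhere. Such a difference can be a sign of RNA degradation, but its cause was not tested.

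None of the 20 probe sets passed the test between genotypes, and 16 had a lower mean in knockout. The smallest p among the members belonged to *Txnrd1*, cytosolic thioredoxin reductase, whose 3 probe sets differed by −0.95 to −0.80 on the log2 scale. *Hmox1*, the inducible haem oxygenase, had the largest mean difference (−2.16 ± 1.15, SE), and 1 wild-type array carried most of it. *Gsta4*, a glutathione transferase for lipid aldehydes, lay highest on the replicate 1 arrays of both genotypes. By limma with Benjamini-Hochberg adjustment over all 45037 probe sets, 0 of 20 member probe sets had an adjusted p under 0.05, against 0% of all probe sets (0 called, smallest adjusted p 0.924). At an unadjusted p under 0.05 there were 3 of 20, the 3 of *Txnrd1*, against 5.34% of all probe sets. Probe sets of 1 gene read the same transcripts and are not independent. In bulk RNA, fewer cells that express a gene and less of its RNA per cell cannot be told apart.

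The direction was uneven among the members. Of the 20 probe sets 16 lay below 0 and 4 above, with a median difference of −0.40, beside 50.9% below 0 and a median of −0.00 over all probe sets. With 1 probe set per gene, the one with the highest mean, 7 of 10 genes lay below 0 and the median was −0.35. The 3 knockout values all lay below the 3 wild-type values for 4 of 20 probe sets, against 4.43% of all probe sets, and for none did they all lie above, against 4.48%. These 4 were 1 probe set each of *Txnrd1*, *Hmox1*, *Keap1* and *Nfe2l2*, the last at values of 4.12 to 4.31. Without wild-type replicate 3 the count below 0 was 13 of 20, with a median of −0.14, beside 54% of all probe sets. By replicate number the medians of the 20 were −0.36, 0.12 and −0.78, beside −0.03, −0.01 and 0.04 over all probe sets. The numbers were taken to pair the arrays, but the labels do not say what arrays of 1 number share. The SEs and p-values given for each gene come from fits that do not use this pairing.

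**Figure D1:**
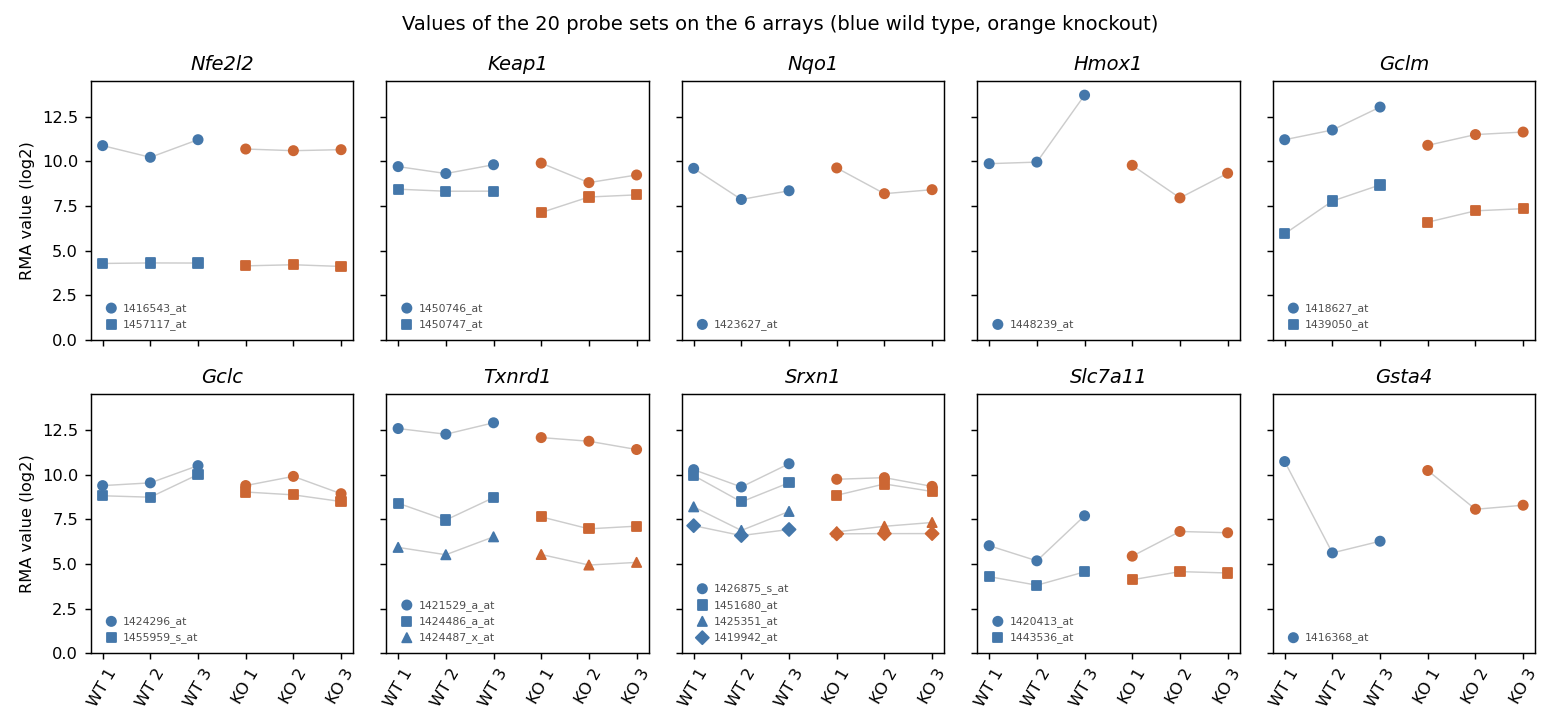
RMA values (log2, vertical axis) of the 20 probe sets of the 10 genes on the 3 wild-type (blue) and 3 knockout (orange) arrays; marker shapes separate the probe sets of a gene, and grey lines join arrays of 1 genotype as a guide for the eye. *Hmox1* stands at 13.71 on wild-type replicate 3 and at 7.95 to 9.96 on the 5 others, while *Gsta4* and *Nqo1* are highest on the replicate 1 arrays.

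The pattern that recurred among the members was a high value on wild-type replicate 3. This array was the highest of the 6 for 7 of 10 genes, *Nfe2l2*, *Hmox1*, *Gclm*, *Gclc*, *Txnrd1*, *Srxn1* and *Slc7a11*, against 12.9% of all genes. For 4 of them, *Hmox1*, *Gclm*, *Slc7a11* and *Gclc*, it exceeded the next array by at least 0.5, against 2.46% of all genes. Over all probe sets it was the highest array for 11 of 20, against 14.2%: it was not so for the other probe sets of *Nfe2l2* and *Slc7a11* or for 3 of the 4 of *Srxn1*. This way of counting was chosen after the values were seen, and a single array has no replicate. *Hmox1* exceeded the next array by 3.75, a 13.5-fold step on the linear scale and the second largest on this array among 18193 genes. The 3 exceptions were *Keap1* and *Nqo1*, highest on knockout replicate 1 by 0.09 and 0.02, and *Gsta4*, highest on wild-type replicate 1 by 0.50. What set wild-type replicate 3 apart was not tested.

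**Figure D2:**
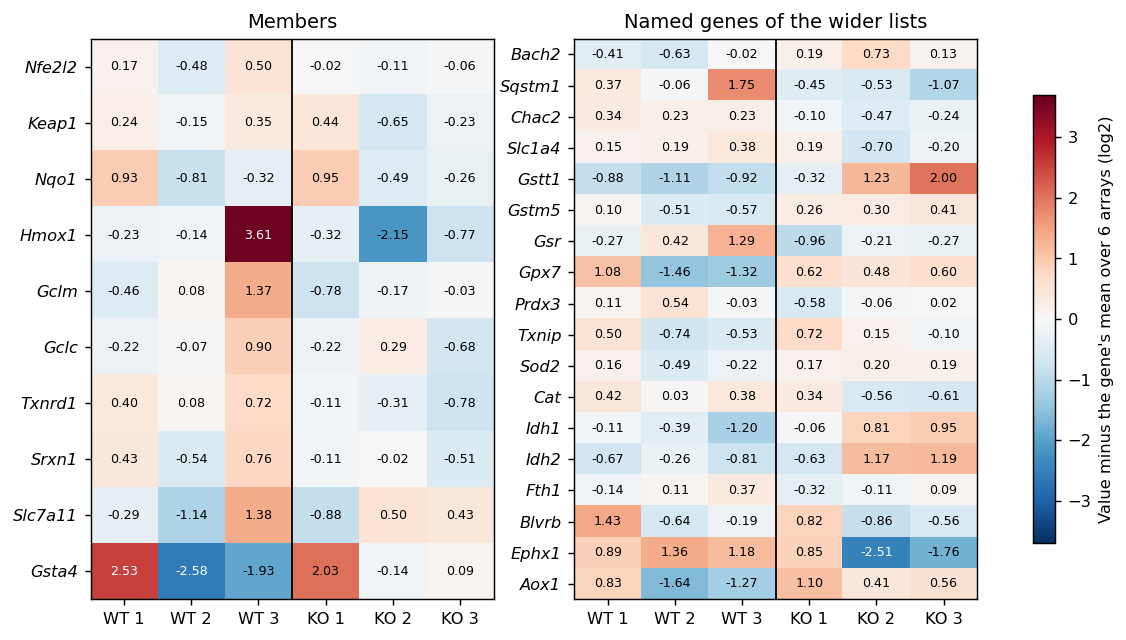
Values of the 10 members (left) and of 18 named genes of the wider lists (right) on each array, as the value minus the gene's mean over the 6 arrays (log2; red higher, blue lower), with wild type left of the black line. The column of wild-type replicate 3 holds the highest value of 7 of the 10 members, from 3.61 for *Hmox1* to 0.50 for *Nfe2l2*, while *Gsta4* is at −1.93 there.

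The promoters of 4 genes that shared this high array are shown, because each holds letters of the antioxidant response element in the 250 bases before its start. Sequences are RefSeq's on GRCm38.p6, read 5′ to 3′ along the gene. Capitals mark TGACNNNGC or TGAGNNNGC, forms of the core of that element, and in *Slc7a11* also TGATGCAAA, the letters of an element bound by the stress factor ATF4, all searched on both strands.
Srxn1, chr2:152105274-152105523, plus strand: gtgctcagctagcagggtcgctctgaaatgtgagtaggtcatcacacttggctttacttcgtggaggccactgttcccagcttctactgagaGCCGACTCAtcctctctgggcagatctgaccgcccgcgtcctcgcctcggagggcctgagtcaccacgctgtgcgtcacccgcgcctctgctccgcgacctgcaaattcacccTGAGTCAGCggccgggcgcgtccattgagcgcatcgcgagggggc
Slc7a11, chr3:50443614-50443863, minus strand: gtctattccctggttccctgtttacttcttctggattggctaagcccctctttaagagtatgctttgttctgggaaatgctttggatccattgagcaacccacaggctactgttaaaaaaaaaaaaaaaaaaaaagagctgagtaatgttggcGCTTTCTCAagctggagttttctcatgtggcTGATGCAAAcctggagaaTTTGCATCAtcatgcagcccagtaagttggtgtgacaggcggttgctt
Gclm, chr3:122245307-122245556, plus strand: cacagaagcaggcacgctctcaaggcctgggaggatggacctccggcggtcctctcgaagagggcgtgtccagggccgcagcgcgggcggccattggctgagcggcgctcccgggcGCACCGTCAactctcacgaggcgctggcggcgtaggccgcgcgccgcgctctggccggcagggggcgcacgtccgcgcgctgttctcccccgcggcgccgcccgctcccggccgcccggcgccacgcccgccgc
Txnrd1, chr10:82858956-82859205, plus strand: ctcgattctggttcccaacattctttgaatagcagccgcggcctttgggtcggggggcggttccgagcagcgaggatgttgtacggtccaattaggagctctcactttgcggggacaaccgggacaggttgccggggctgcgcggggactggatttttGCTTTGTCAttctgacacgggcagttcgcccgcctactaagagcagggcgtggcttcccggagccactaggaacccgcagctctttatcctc
In *Srxn1* the match TGAGTCAGC ends 37 bases before the start, and GCCGACTCA, which reads TGAGNNNGC on the opposite strand, ends 150 bases before it. In *Slc7a11* GCTTTCTCA reads the same form on the opposite strand, and 2 copies of the ATF4 element face each other, TGATGCAAA ending 58 and TTTGCATCA ending 40 bases before the start. *Gclm* holds GCACCGTCA and *Txnrd1*, at the second of its 3 listed starts, GCTTTGTCA, both on the opposite strand. The window of *Nfe2l2* also held a match, TGACTCCGC, and those of *Keap1* and *Nqo1* held none. Bases outside these 250 were not searched, so a window without a match does not show that a gene lacks the element. *Hmox1*, *Gclc* and *Gsta4* had no entry in the table, so 7 of 10 genes were matched. One or the other core was present in 5 of 7 genes, in 1 window each of the 9 windows these genes have, and in 23% of all 32851 windows of this length. TGACNNNGC alone was in 10.2% of windows, TGAGNNNGC in 14.4% and TGATGCAAA in 0.225%. A match of letters is a description and not evidence of binding.

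Neither regulator passed the test. *Nfe2l2* measured 10.88, 10.23 and 11.21 on the wild-type arrays and 10.69, 10.60 and 10.66 on the knockout arrays. The knockout values lay inside the wild-type range, and the difference was −0.13 ± 0.26 (SE), with the sign turned, at 0.09, without wild-type replicate 3. Its other probe set lay between 4.12 and 4.31 on all arrays and differed by −0.14 ± 0.11. *Keap1* measured 9.71, 9.32 and 9.81 on the wild-type arrays and 9.90, 8.81 and 9.24 on the knockout arrays, a difference of −0.30 ± 0.31 with overlapping groups. The second *Keap1* probe set read 8.44, 8.33 and 8.33 in the wild-type samples and 7.14, 8.004 and 8.12 in the knockout samples. Here every knockout value lay below every wild-type value, by −0.61 ± 0.28 on average (unadjusted p = 0.074 in the limma fit, adjusted p = 0.951). Knockout replicate 1, whose control probe sets differed most between 3′ and 5′, was the highest array for the first *Keap1* probe set and the lowest for the second: the gap between them was 2.77 there and 0.81 to 1.48 on the other arrays. Without that array the second probe set differed by −0.30 and the first by −0.59, and the part of RNA quality was not tested.

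The members that supply glutathione, *Slc7a11*, *Gclc* and *Gclm*, were highest on wild-type replicate 3 by their probe sets with the highest mean. None of them passed the test. *Slc7a11* is the light chain of the transporter that imports cystine, the precursor that limits glutathione synthesis. It measured 6.02, 5.17 and 7.70 on the wild-type arrays and 5.43, 6.82 and 6.75 on the knockout arrays. Wild type held both the highest and the lowest value, and the means differed by 0.04 ± 0.73 (SE). The difference was 0.74 without wild-type replicate 3 and −0.53 without wild-type replicate 2. Its second probe set stayed between 3.81 and 4.57 and differed by 0.18 ± 0.24. *Gclc* is the catalytic subunit of glutamate-cysteine ligase, the rate-limiting enzyme of glutathione synthesis. It measured 9.39, 9.54 and 10.50 on the wild-type arrays and 9.39, 9.90 and 8.93 on the knockout arrays (−0.40 ± 0.39). The groups overlapped, and the second *Gclc* probe set gave −0.39 ± 0.38. Without wild-type replicate 3 they gave −0.05 and 0.02.

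*Gclm*, the modifier subunit that raises the activity of that ligase, was likewise highest on wild-type replicate 3. It measured 11.21, 11.76 and 13.04 on the wild-type arrays and 10.90, 11.50 and 11.64 on the knockout arrays, a difference of −0.66 ± 0.50 (SE). Each knockout value was below the wild-type value of its replicate number, by −0.31, −0.26 and −1.40, while the groups as a whole overlapped. The second *Gclm* probe set read 5.94, 7.78 and 8.68 in the wild-type samples and 6.59, 7.23 and 7.35 in the knockout samples, and differed by −0.41 ± 0.70. Replicate 1 was the lowest array of each genotype for both probe sets. Without wild-type replicate 3 the differences were −0.14 and 0.20.

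In the thioredoxin branch, the difference in *Txnrd1* had the same sign in all 3 probe sets and all 3 replicate numbers. The enzyme keeps thioredoxin reduced with electrons from NADPH. Its probe set with the highest mean measured 12.58, 12.26 and 12.90 on the wild-type arrays and 12.08, 11.87 and 11.41 on the knockout arrays. All 3 knockout values lay below all wild-type values, and the difference was −0.80 ± 0.25 (limma, unadjusted p = 0.0191, adjusted p = 0.924). By replicate number it was −0.51, −0.39 and −1.50. The second probe set read 8.40, 7.46 and 8.71 against 7.64, 6.96 and 7.12 (−0.95 ± 0.37), and the third 5.93, 5.51 and 6.52 against 5.53, 4.94 and 5.09 (−0.80 ± 0.30). Both of these overlapped between genotypes, with wild-type replicate 2 below knockout replicate 1, and both were lower in knockout within every replicate number. The name of the third carries the suffix that the maker gives to probe sets that may also bind other transcripts. Leaving out any 1 array kept the first between −0.96 and −0.61, the second between −1.32 and −0.69 and the third between −1.04 and −0.54, and none passed. Over the 20 member probe sets, 7 were lower in knockout within every replicate number, against 13.8% of all probe sets. The 3 of *Txnrd1* are among these 7 and are not independent. *Nqo1* was the 1 that was higher, against 14.7%. With 1 probe set per gene, 3 of 10 members were lower within every replicate number, against 2444 of 18193 genes.

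*Srxn1*, sulfiredoxin, repairs over-oxidised peroxiredoxins and had 4 probe sets. The one with the highest mean measured 10.28, 9.31 and 10.61 on the wild-type arrays and 9.74, 9.83 and 9.34 on the knockout arrays. Knockout lay within the wild-type range, with a difference of −0.43 ± 0.36 (SE). The others differed by −0.20 ± 0.41, −0.60 ± 0.37 and −0.19 ± 0.17, and these 3 were highest on wild-type replicate 1. Wild-type replicate 2 was the lowest array for 3 of the 4 probe sets, and within replicate 2 all 4 were higher in knockout, by 0.11 to 1.003. Within replicates 1 and 3 all 4 were lower, by −1.40 to −0.46 and by −1.27 to −0.23.

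*Hmox1* opens the haem ring and releases iron, carbon monoxide and biliverdin, and it is among the most inducible genes of oxidative and metal stress. It measured 9.87, 9.96 and 13.71 on the wild-type arrays and 9.78, 7.95 and 9.34 on the knockout arrays. The groups did not overlap, but wild-type replicate 1 and knockout replicate 1 were only 0.09 apart. The difference of −2.16 ± 1.15 (limma, unadjusted p = 0.111, adjusted p = 0.961) became −0.89 ± 0.58 without wild-type replicate 3. It was −3.19 ± 1.35 over replicates 2 and 3 alone (adjusted p = 0.2998), and by replicate number it was −0.09, −2.01 and −4.37. Macrophages also express *Hmox1*. Of the 11 macrophage and leukocyte markers 1, *Cd14*, was highest on wild-type replicate 3. It measured 8.17, 8.35 and 8.89 on the wild-type arrays and 7.89, 5.87 and 5.75 on the knockout arrays, without overlap. The median of the 11 relative to each gene's mean was −0.23 on wild-type replicate 3, against −0.13 to 0.29 on the other arrays, and they summed to 805 there; 8 of the 11 had means under 6. Their part in the *Hmox1* values was not tested.

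*Nqo1* and *Gsta4* followed the replicate 1 arrays instead. *Nqo1* reduces quinones by 2 electrons and so spares the cell their radical forms. It measured 9.61, 7.87 and 8.35 on the wild-type arrays and 9.63, 8.19 and 8.42 on the knockout arrays. The difference was 0.14 ± 0.58 (SE), small beside the step of at least 1.19 between replicate 1 and the 4 other arrays. *Gsta4* conjugates the lipid aldehyde 4-hydroxynonenal to glutathione. It measured 10.73, 5.62 and 6.27 on the wild-type arrays and 10.23, 8.06 and 8.29 on the knockout arrays, a range of 5.12 that exceeded that of 99.3% of genes. Both replicate 1 arrays lay above the 4 others for these 2 of 10 members, and for 24.6% of all genes. Proliferation markers were low on the same arrays, as given above, and their part was not tested.

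With both replicate 1 arrays left out, where it was highest, *Gsta4* was higher in knockout on the 4 arrays that remained. The values are then 5.62 and 6.27 against 8.06 and 8.29, a difference of 2.23 ± 0.27 (limma, 2 against 2 arrays, adjusted p = 0.0344). It was the 1 member probe set of 20 called in this setting, a share near the 4.08% of all probe sets (1836 called). Over all 6 arrays the difference was 1.32 ± 1.45 and was not called, and within replicate 1 it was −0.50. Leaving out 1 array gave 0.36 without wild-type replicate 2 and 2.92 without wild-type replicate 1, and neither was called. Some markers of cell types also differed between genotypes on these 4 arrays. *Fap* (4.10 ± 0.58), *Lum* (3.12 ± 0.38) and the adipocyte marker *Cebpa* (2.51 ± 0.37) were called higher in knockout, and *Acta1* (−2.73 ± 0.41), *Cd14* (−2.81 ± 0.23) and the keratinocyte marker *Dsp* (−2.82 ± 0.24) lower. By list, 2 of 12 fibroblast, 1 of 5 adipocyte and 1 of 7 skeletal muscle markers were called. So were 1 of 11 macrophage and leukocyte and 1 of 8 keratinocyte markers, against 5.78% of all genes. Others in these lists lay near 0 or went the other way, such as *Fabp4* at −1.32, *Krt5* at 0.14 and *Des* at 0.01. Among the fibroblast markers *Vim*, *Fn1* and *S100a4* were at −0.24, −0.25 and −0.21, and the rest of that list lay above 0. *Thy1* read 4.65 and 7.17 against 10.54 and 10.28, *Dcn* 6.87 and 9.9998 against 12.98 and 12.58, and *Lpl* 4.57 and 8.82 against 12.21 and 11.74, and these were not called. Their part was not tested. *Txnrd1* was at −0.94 ± 0.30 over the same 4 arrays and did not pass (adjusted p = 0.178).

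**Figure D3:**
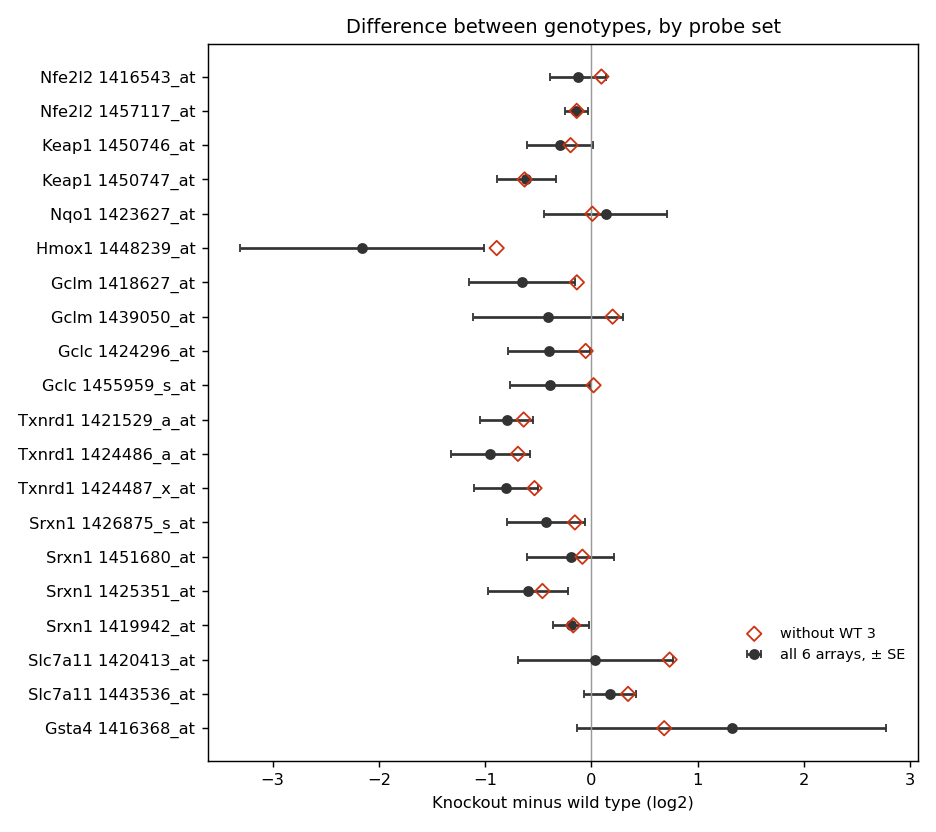
Difference of knockout minus wild type (log2, horizontal axis) for each of the 20 probe sets, as black points with bars of ± 1 SE over all 6 arrays; open red diamonds give the difference without wild-type replicate 3. *Hmox1* moves from −2.16 to −0.89 and *Slc7a11* from 0.04 to 0.74, while the 3 probe sets of *Txnrd1* stay below −0.50.

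The rest of the pathway was described by 9 wider lists of 111 genes, of which 101 were measured. None of the 101 passed (limma adjusted p), 10 had an unadjusted p under 0.05, 5 lower and 5 higher, and 6.98% of all genes did. Their median difference was −0.02, with 55 below 0 and 46 above, beside 48.9% below 0 and a median of 0.01 over all genes. Wild-type replicate 3 was the highest array for 14 of 101, a share near the 12.9% of all genes.

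Among 11 regulators, 3 had an unadjusted p under 0.05 on the lower side and 1 on the higher (list median −0.04). *Sqstm1*, the autophagy receptor p62 that binds KEAP1, measured 12.05, 11.62 and 13.43 on the wild-type arrays and 11.23, 11.15 and 10.61 on the knockout arrays. The groups did not overlap (−1.37 ± 0.49, SE), wild-type replicate 3 was the highest array, and the difference was −0.84 without it. *Bach2*, a repressor related to the one that competes with NRF2, was at 0.70 ± 0.24, but 1 of its 3 probe sets lay below 0, at −0.18.

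Among 11 genes of cystine and glutathione turnover the median was 0.14. Wild-type replicate 3 was the highest array for 3 of these 11, against 12.9% of all genes. *Chac2*, which degrades glutathione, measured 9.44 ± 0.07 over the wild-type and 8.90 ± 0.19 over the knockout arrays (SD, n = 3) without overlap. *Slc1a4*, a neutral amino acid transporter, differed by −0.48 ± 0.25 (SE). The 13 peroxidases, glutaredoxins and the reductase had a median of −0.01. *Gsr*, which regenerates reduced glutathione, was at −0.96 ± 0.44 and highest on wild-type replicate 3 (10.83), and *Gpx7*, a peroxidase of the endoplasmic reticulum, at 1.13 ± 0.69. Leaving out 1 array put them at −1.34 to −0.56 and at 0.69 to 1.96.

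The 21 glutathione transferases leaned the other way, with 14 above 0 and 7 below and a median of 0.18. *Gstt1* measured 6.77, 6.53 and 6.73 on the wild-type arrays and 7.32, 8.88 and 9.65 on the knockout arrays. Its groups did not overlap, and the difference was 1.94 ± 0.58 (SE). *Gstm5* was at 0.65 ± 0.21, also without overlap, but close relatives in its family may share probes. Wild-type replicate 1 was the highest array for 12 of the 21, and for 31.4% of all genes.

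Medians of the remaining lists lay between −0.22 and 0.02. Among 8 thioredoxins and peroxiredoxins (0.02), *Prdx3*, the mitochondrial peroxiredoxin, was at −0.41 ± 0.24 (SE) and *Txnip*, an inhibitor of thioredoxin, at 0.51 ± 0.39. Of the 4 superoxide dismutases and catalase (−0.22), mitochondrial *Sod2* was at 0.37 ± 0.19 and *Cat* at −0.55 ± 0.30. For the 7 genes of NADPH supply (−0.15), *Idh1* was higher without overlap (10.98 ± 0.56 against 12.11 ± 0.55, SD, n = 3), and *Idh2* was at 1.15 ± 0.53 (SE). The *Idh1* groups nearly met on replicate 1, at 11.43 in wild type and 11.49 in knockout. By replicate number *Idh1* differed by 0.05, 1.20 and 2.15.

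All 8 measured genes of haem and iron lay below 0, with a median of −0.18 and none at an unadjusted p under 0.05. *Fth1*, the ferritin heavy chain, was at −0.22 ± 0.19 (SE) and *Blvrb*, a biliverdin reductase, at −0.40 ± 0.68. Among 18 drug-metabolising enzymes and pumps (−0.05), *Ephx1*, microsomal epoxide hydrolase, measured 12.04, 12.51 and 12.33 on the wild-type arrays and 11.999, 8.64 and 9.39 on the knockout arrays. Knockout replicate 1 lay just under the wild-type values and the other 2 knockout arrays far below them (−2.28 ± 0.86). *Aox1*, aldehyde oxidase, was at 1.38 ± 0.67.

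Over replicates 2 and 3 alone, 12 of the 101 wider genes were called, 10 higher and 2 lower, against 5.78% of all genes, 3.07% higher and 2.72% lower. The 2 that fell were *Ephx1* (−3.40 ± 0.29, SE) and *Sod3*, the extracellular superoxide dismutase (−1.86 ± 0.18). Those that rose were *Adh7*, *Gstk1*, *Gstt1*, *Mgst1*, *Cbr3*, *Cbr1*, *Aox1*, *Gpx7*, *Gstm4* and *Idh2*, by 1.72 to 3.45. Among these are 4 glutathione transferases and the carbonyl reductases *Cbr1* and *Cbr3*. *Adh7*, *Gstk1*, *Mgst1*, *Cbr1*, *Cbr3*, *Gstm4* and *Sod3* were named after their values were seen. Some markers of fibroblasts, adipocytes, muscle, macrophages and keratinocytes, named beside *Gsta4*, differed on the same 4 arrays, and their part was not tested.

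**Figure D4:**
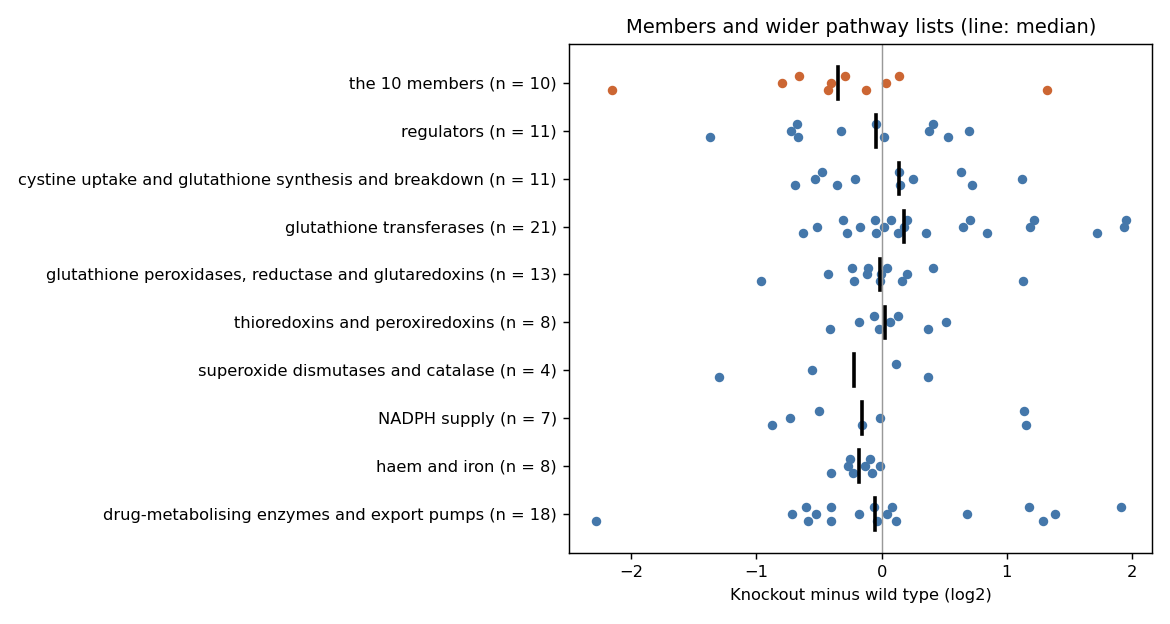
Difference of knockout minus wild type (log2, horizontal axis) for the 10 members (orange) and the measured genes of the 9 wider lists (blue), 1 point per gene, with black lines at the list medians. The members have a median of −0.35, and the wider lists lie between −0.22 and 0.18.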

How the data were processed

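The authors deposited log2 probe set values of 6 arrays. Per the submitters' processing notes they used RMA and R 2.11.1. RMA equalises the arrays' distributions, so a change in total RNA cannot be seen, and compresses differences of dim probe sets; the annotation package is not given in the sources used here. Of 45101 probe sets 64 controls were left out. Genes were named from the platform's annotation table, from probe sets with 1 gene. limma 3.58.1 in R 4.3.3 (lmFit, eBayes) compared knockout with wild type over all 45037 probe sets, with Benjamini-Hochberg adjustment at 0.05; the number of arrays limits the precision, and an exact permutation test of 3 against 3 cannot go below 0.1. The labels do not say whether samples came from separate animals. The p-values set a difference between means against the spread among these samples only, and that spread may be technical.

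Members and lists were chosen with earlier results of these data known. Named were every member probe set and, from each wider list, the 2 genes with the smallest p; the probe set with the highest mean stood for a gene. Arrays with the same replicate number deviated together (correlations of 0.50, 0.49 and 0.25), so the numbers were taken to pair them, although wild-type replicate 3 correlated better with knockout replicate 2 (0.33). Alternatives were the replicate block, array weights, other eBayes priors, a mean of at least 6, renewed quantile normalization, 1 probe set per gene, an adjusted p under 0.1, a gene's median probe set, and fewer arrays. The fit was tested on simulated data with noise drawn independently for each array. Those data held no shift shared by the replicate 1 arrays, so the test cannot show how the fit handles such a shift.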

Additional observations from a re-analysis of the deposited data

How the results depend on the processing

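Over all 45037 probe sets 0 were called with the replicate block, array weights, the other eBayes priors, the filter at a mean of 6, renewed quantile normalization, 1 probe set per gene or an adjusted p under 0.1, against 1836 with both replicate 1 arrays left out. Leaving out 1 array called 0 to 48, the 48 without knockout replicate 1. Member probe sets called numbered 0 in each of these settings, except 1 with both replicate 1 arrays left out, and wider pathway genes 0 except 12 there. With the replicate block 0 member probe sets were called (smallest adjusted p 0.539 for *Txnrd1*), and the block changed no other call. With it the SE was 0.15 instead of 0.58 for *Nqo1*, 0.63 instead of 1.45 for *Gsta4* and 0.28 instead of 0.50 for the first *Gclm* probe set. For the first probe sets of *Txnrd1* and *Gclc* it was larger, at 0.27 instead of 0.25 and at 0.42 instead of 0.39. Of the named probe sets, array weights turned the sign of *Nfe2l2* (0.053) and of the second *Srxn1* probe set (0.21), which was also at 0.26 with both replicate 1 arrays left out. Leaving out 1 array gave ranges that cross 0 for *Nfe2l2* (−0.40 to 0.093), *Nqo1* (−0.31 to 0.64), the second probe sets of *Gclm* (−1.17 to 0.20), *Gclc* (−0.62 to 0.019), *Srxn1* (−0.62 to 0.12) and *Slc7a11* (−0.029 to 0.34), the first of *Slc7a11* (−0.53 to 0.74) and *Blvrb* (−0.91 to 0.21); the cause was not tested. It also moved others by over 1.5 times with the sign kept, among them *Slc1a4* (−0.69 to −0.24), *Prdx3* (−0.53 to −0.22), *Txnip* (0.27 to 0.89), *Sod2* (0.22 to 0.54), *Cat* (−0.86 to −0.38), *Fth1* (−0.35 to −0.098), *Idh2* (0.85 to 1.76) and *Aox1* (0.91 to 2.15). The first *Keap1* probe set (−0.59 to −0.043) and the second (−0.80 to −0.30) moved likewise. So did *Ephx1* (−3.28 to −1.60), *Gstt1* (1.42 to 2.58), *Idh1* (0.82 to 1.45) and *Bach2* (0.51 to 0.87). Background correction and scan order could not be varied from summarised values. Signal limits the second probe sets of *Nfe2l2* and *Slc7a11* and the third of *Txnrd1*, whose means lie under 6, where differences are compressed.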

Other observations

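Wild-type replicate 3, where 7 of the 10 members were highest, also carried high values of other stress genes, which were chosen after their values were seen. *Atf3*, a transcription factor induced by many stresses, was the one gene that exceeded the next array by more than *Hmox1* did: it stood at 11.37 there and at 5.58 to 7.44 on the 5 others. *Ankrd37*, *Ero1a*, *Bnip3*, *Ndrg1* and *Hk2*, known as hypoxia-induced genes, exceeded the next array by 3.56, 2.54, 2.46, 2.24 and 2.23. *Zfand2a* and *Hspa1a*, of the heat shock and arsenite response, did so by 2.13 and 1.76, and the metallothionein *Mt2* by 1.75. These are values of a single array, and what they share was not tested.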
